A study of Mus musculus with 8 samples.

Results

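The 10 genes described here make up a core of the oxidative stress response: Nfe2l2, Keap1, Nqo1, Gclc, Gclm, Hmox1, Txnrd1, Srxn1, Mt1 and Mt2. They were named as a set, with earlier results of these data known. Each accessible region that overlapped the gene body or the 10 kb on either side was assigned to the gene. In all, 137 of the 315767 merged regions of the series met this rule. Of these, 16 regions overlapped a promoter window (1 kb on each side of an annotated transcription start site, TSS) of 1 of the 10 genes, 110 touched no promoter and were called distal, and 11 lay at promoters of neighbouring genes. Regions present in every library numbered 14, 31 and 5 in these classes.

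The assay was bulk ATAC-Seq, which tags open DNA with adapters carried by the Tn5 transposase, on hepatocytes of C57BL/6 mice aged 10 to 12 weeks by the labels. Per the study's methods the mice were male, of the substrain C57BL/6J, and the cells were freed by perfusing the liver with collagenase. Of the 8 libraries, 2 were of undamaged liver (0 h) and 6 of liver regrowing after partial hepatectomy (PHx), the surgical removal of most of the organ, taken in pairs 48, 72 and 96 h after it. The labels give the same strain for all 8 and name no transgene or drug. The comparison asks how accessibility at stress response genes differs between undamaged and regenerating liver.

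Nfe2l2 encodes Nrf2, a transcription factor that is held in the cytoplasm and marked for degradation by Keap1, a sensor whose cysteines react with electrophiles. When Keap1 is modified, Nrf2 enters the nucleus, pairs with a small Maf protein and binds antioxidant response elements near genes for glutathione synthesis, thioredoxin recycling, quinone reduction and heme breakdown. Metallothioneins bind zinc and copper and are switched on by metals through MTF1 at metal response elements. Hepatocytes carry out much of the detoxification of the body, and these genes are among their standard defences.

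The deposited values are peak lists. Within each list, distinct intervals were ranked by the −log10 p of the peak caller at the summit, so that rank 1 is the most significant interval, and a lower rank number is called stronger here. The lists held 105206 to 154577 distinct intervals, and 67 to 90 of the 137 regions were found in a library. The read depth is unknown. The median fold enrichment (signal over local background) of the 57473 regions found in all 8 lists was 6.04 and 6.53 in the 48 h libraries and 7.14 to 8.49 in the other 6, so fold enrichments at 48 h are low throughout. Promoters of 10 hepatocyte marker genes were listed 6 to 10 at a time, and Alb, the albumin gene, was listed in 3 libraries (ranks 35178 and 52573 at 0 h and 59786 in replicate 1 at 96 h). Of these 10 promoters, 7, 7 and 5 ranked weaker than in both 0 h libraries at 48, 72 and 96 h, where 18.7%, 20.4% and 12.9% of all protein-coding promoters did, and none ranked stronger. The weaker ones numbered 5, 4 and 2 by rank over list length (14.7%, 10.9% and 8.02% of all) and 6, 6 and 2 by fold enrichment (13.3%, 17.3% and 9.84%). Of 7 macrophage markers 5 were in no list, and all 4 lymphocyte markers were in none, whereas 3 of 6 endothelial, 2 of 5 stellate cell and 2 of 5 cholangiocyte markers were in all 8. The stellate cell marker Reln ranked stronger at 48 h (5057 and 2038 against 5347 and 23627 at 0 h) and at 96 h (3239 and 4774). Des ranked stronger at 48 h, but weakly (89442 and 70520 against 117523 in replicate 1 at 0 h and no interval in replicate 2). No stellate cell marker ranked weaker. Endothelial markers were 1 stronger and 1 weaker (48 h), 0 and 1 (72 h) and 1 and 1 (96 h), and among cholangiocyte markers 1 was weaker at both earlier times. Of all protein-coding promoters 11.7%, 11.8% and 10.1% ranked stronger at the 3 times. The other scalings were not counted for these cell types. The part of cell composition in the results below was not tested, and fewer open copies per cell cannot be told apart from fewer cells with the site open.

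A region was counted as different at a time when both of its ranks lay on the same side of both 0 h ranks, a description with no test. At 48 h, 3 of the 16 promoter regions ranked stronger than both 0 h libraries and 4 weaker, where 11.2% and 15.9% of all 33918 promoter regions did. At 72 h the counts were 1 and 4 (12.2% and 16.9% of all promoter regions), and at 96 h they were 3 and 2 (9.64% and 12.4%). Of the 16 regions 14 were in all 8 lists, against 15937 of the 33918, and among these 14 the counts were 3 and 3 at 48 h (21.4% each, beside 17.9% and 27.2% of all such regions). They were 1 and 3 at 72 h (7.14% and 21.4%, beside 16.0% and 29.7%) and 3 and 2 at 96 h (21.4% and 14.3%, beside 14.4% and 20.2%). With so few regions, a single one is worth a large share. Among the 110 distal regions, 9 ranked stronger and 17 weaker at 48 h, beside 5.26% and 6.93% of all 281849 distal regions. The distal counts were 7 and 12 at 72 h (7.94% and 5.76% of all distal regions) and 8 and 12 at 96 h (5.52% and 5.74%). The weaker distal regions were 15.5%, 10.9% and 10.9% of the 110 at the 3 times, above the background, and the stronger ones 8.18%, 6.36% and 7.27%, above it at 48 and 96 h and below it at 72 h. Regions in few lists can rarely separate the groups, and 31 of the 110 were in all 8 lists, against 41536 of the 281849, which raises both shares. Among the 31, the stronger and weaker counts were 6 and 13 at 48 h (19.4% and 41.9%, beside 20.4% and 23.1% of all such regions). They were 4 and 9 at 72 h (12.9% and 29.0%, beside 20.9% and 20.1%) and 4 and 7 at 96 h (12.9% and 22.6%, beside 17.0% and 19.4%), so that the weaker share at 96 h was near the background.

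The split depends on the scaling. When the rank was divided by the length of its list, the distal counts became 12 stronger and 14 weaker at 48 h (6.22% and 5.39% of all distal regions), 16 and 6 at 72 h (12.5% and 2.59%), and 15 and 10 at 96 h (7.74% and 3.42%). This scaling moves the median distal region by -0.35 in log2 rank at 72 h, -0.21 at 96 h and -0.13 at 48 h, toward stronger, because the later lists are longer. When intervals were ranked by fold enrichment, the counts were 3 and 19 (4.84% and 7.0%), 5 and 18 (7.28% and 6.08%), and 5 and 18 (4.96% and 5.99%). Promoter counts by rank over list length were 3 and 3 (13.2% and 12.4% of all promoter regions), 4 and 3 (19.8% and 8.72%), and 4 and 1 (14.3% and 7.64%). By fold enrichment they were 3 and 2 (12.3% and 12.5%), 2 and 7 (11.3% and 15.3%), and 3 and 1 (9.51% and 10.5%), so that 43.8% of the 16 were weaker at 72 h. More distal regions were thus stronger than weaker at 72 and 96 h by rank over list length, and more weaker than stronger by the other measures. The weaker share of the 110 regions was above that of all distal regions in each of the 3 scalings at each time, and by rank over list length it was 12.7%, 5.45% and 9.09%. The stronger share was also above it at each time by rank over list length (10.9%, 14.5% and 13.6%), and below it by fold enrichment (2.73%, 4.55% and 4.55%). Regions in all 8 lists make up more of the 110 than of all distal regions, so these shares do not by themselves show a direction. Below, a region is called by plain rank unless another scaling is named. Of the 72 pairs of a region named by the rule and a time that overlapped by rank, 14 became stronger by rank over list length, and 4 became stronger and 15 weaker by fold enrichment.

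**Figure D1:**
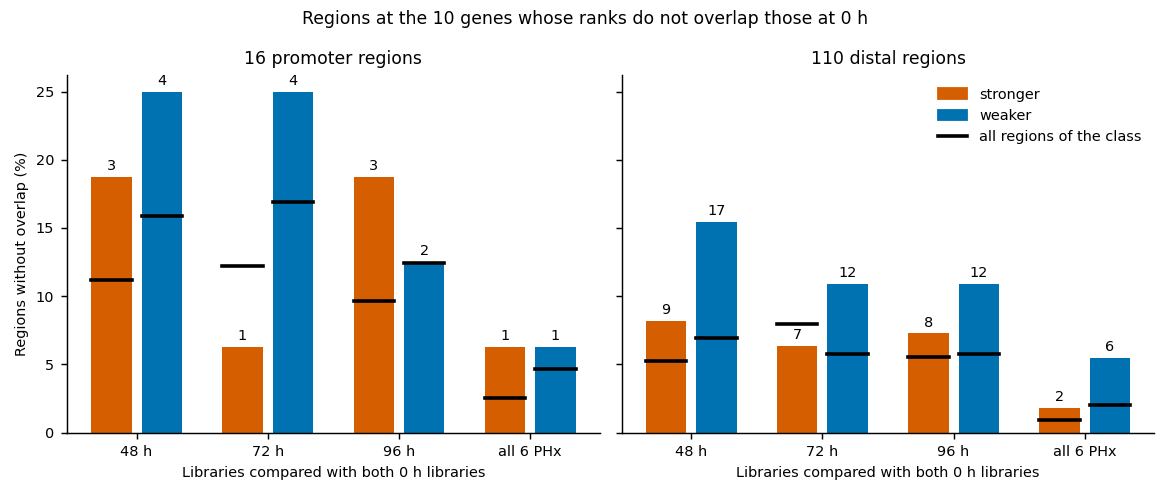
Share (%) of the 16 promoter and 110 distal regions at the 10 genes whose ranks in both libraries of a time (or in all 6 libraries after PHx) were stronger (orange) or weaker (blue) than in both 0 h libraries, with the number of regions above each bar and black lines for all regions of the class. The weaker distal bars stand above their lines at each time, from 17 regions at 48 h to 12 at 96 h. The stronger distal bars stand above theirs at 48 and 96 h and below at 72 h.

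In all 6 libraries after PHx, 1 promoter region ranked stronger and 1 weaker than both 0 h libraries (2.54% and 4.63% of all promoter regions), and 2 distal regions ranked stronger and 6 weaker (0.946% and 1.99% of all distal regions). Among regions in all 8 lists, the promoter counts were 1 and 1 of 14 (7.14% each, beside 4.37% and 7.38% of all such regions). The distal counts were 2 and 4 of 31 (6.45% and 12.9%, beside 4.53% and 5.57%). The promoter regions were those of Hmox1 (stronger) and a region 523 bp upstream of a Txnrd1 TSS (weaker). The stronger distal regions lay in an intron of Nfe2l2, 15 kb into the gene, and 41494 bp downstream of the Gclc TSS. Weaker were regions 9.7 kb upstream and 9.5 kb downstream of the Hmox1 TSS, 9.6 kb upstream of Gclc, 7.4 kb upstream of Mt2, 8428 bp upstream of Nfe2l2 and 14118 bp downstream of Gclc, the last of which was in no list after PHx. Those at Gclc 41494 and 14118 bp and at Nfe2l2 8428 bp fall outside the rule for named regions and were chosen after their values were seen. The 3 times share the same 0 h libraries, so an unusual 0 h value counts 3 times here.

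By median rank the promoter of Nfe2l2, the gene of Nrf2 itself, came next to that of Gclm among the 10. The Nfe2l2 promoter region (chr2:75703432-75705454 of mm10, over the TSS and the untranslated part of its exon) ranked 4487 and 5859 (0 h), 8947 and 7436 (48 h), 8858 and 3391 (72 h) and 5224 and 5028 (96 h). Both 48 h libraries were weaker than both 0 h libraries, the 72 h libraries lay on either side of them, and the 96 h libraries lay between them. Divided by list length, or ranked by fold enrichment, the 48 h ranks overlapped those at 0 h. Its fold enrichment was 6.68 and 7.03 (0 h), 5.05 and 5.33 (48 h), 5.33 and 6.82 (72 h) and 5.09 and 6.90 (96 h). After quantile normalisation the difference at 48 h was -0.04 ± 0.27 (SE) in log2 fold enrichment, with an adjusted p = 0.977 by limma. The intronic region 15 kb into Nfe2l2 was weak in every list, at ranks 108374 and 88239 (0 h), 57928 and 79360 (48 h), 63415 and 47792 (72 h) and 43670 and 59326 (96 h). All 6 libraries after PHx were stronger than both at 0 h by this rank and by rank over list length. Ranked by fold enrichment they overlapped those at 0 h, where the values were 1.73 and 2.13 against 2.0 to 2.78 after PHx. A region 34.8 kb from the TSS, beyond the 3′ end, ranked 41584 and 32036 (0 h) and 16295 and 18678 (48 h), and was stronger at 48 and 72 h but not at 96 h (41651 and 28609). By rank over list length it was stronger at 96 h too, and by fold enrichment it overlapped 0 h at 48 and 72 h. Another intronic region, 8.7 kb in, turned with the scaling at 72 h, where its ranks of 72400 and 76786 against 70803 and 56873 at 0 h were weaker by rank and by fold enrichment and stronger by rank over list length.

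Keap1, the inhibitor of Nrf2, had a promoter that moved both ways. Its region at chr9:21238141-21239459 ranked 6024 and 14312 (0 h) and 3606 and 5645 (48 h). It then ranked 23805 and 31257 (72 h) and 16724 and 18750 (96 h). The 48 h pair was stronger than both 0 h libraries and the 72 and 96 h pairs weaker, although the 0 h libraries themselves lay far apart. Dividing by list length, or ranking by fold enrichment, left the calls at 48 and 72 h and ended that at 96 h. Fold enrichment was 10.4 and 7.88 (0 h), 9.12 and 8.60 (48 h), 6.43 and 5.79 (72 h) and 7.17 and 7.27 (96 h). By limma the difference from 0 h was 0.38 ± 0.24 in log2 fold enrichment at 48 h (adjusted p = 0.644) and -0.52 ± 0.24 at 72 h (adjusted p = 0.797). The second region in the Keap1 promoter window, 1070 bp downstream of the nearest TSS, ranked 41725 and 32779 (0 h), 18849 and 24193 (48 h), 36418 and 48148 (72 h) and 29925 and 22918 (96 h). It was stronger at 48 and 96 h, so the 2 regions of this promoter did not share a course. Of the distal regions, the one 18.1 kb downstream was weaker at 48 h (46099 and 49349 against 33981 and 13080) and, by plain rank, at 72 h (34624 and 50658). Its 200 bp summit window held a TGACNNNGC match. The regions 2.2 kb upstream (43373 and 29404 at 0 h, 33233 to 75021 after PHx) and 17.1 kb downstream overlapped 0 h by rank at each time. The latter was stronger at 48 h in both other scalings, and at 72 h by fold enrichment.

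**Figure D2:**
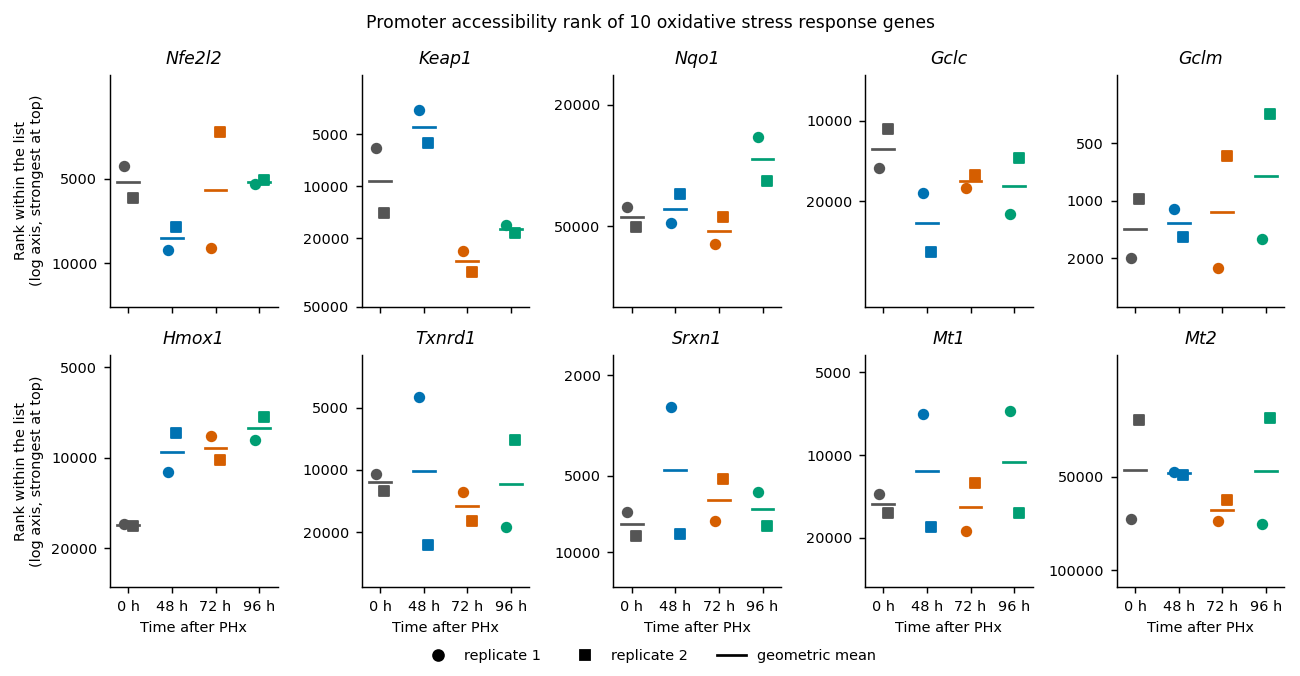
Rank of the strongest interval in the promoter window of each gene (log axis, strongest at the top) by time after PHx, with 1 point per library and a line at the geometric mean of the 2 libraries. For Mt1 it belongs to a broad region 3.0 kb downstream of the TSS, except in replicate 2 at 0 h, where it lies at the TSS. Hmox1 sits at 16579 and 16880 at 0 h and between 7310 and 11166 after PHx, and Keap1 runs from 3606 and 5645 at 48 h to 23805 and 31257 at 72 h.

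Nqo1, a quinone reductase that serves as the standard readout of Nrf2 activity, had a weak promoter region. It ranked 43391 and 50139 (0 h), 48786 and 39220 (48 h), 57348 and 46470 (72 h) and 25464 and 35621 (96 h). By rank the 96 h pair alone stood clear of 0 h, on the stronger side, and it did so in each scaling tried. By fold enrichment the 72 h pair was weaker. The fold enrichment went from 6.26 and 5.07 at 0 h to 7.83 and 6.20 at 96 h, which overlap, and the limma difference of 0.38 ± 0.24 had an adjusted p = 0.930. A region 2.9 kb upstream of Nqo1 ranked 30074 and 23347 (0 h) and 40393 and 39232 (48 h). It was weaker at 48 h and, by rank but not by rank over list length, at 96 h (30567 and 54003). A region 16.4 kb downstream ranked 66734 and 55634 at 0 h and 27486 to 81655 after PHx, and overlapped by rank at each time.

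Gclc and Gclm encode the catalytic and modifier subunits of glutamate-cysteine ligase, which carries out the rate-limiting step of glutathione synthesis. The Gclm promoter was the strongest of the 10, above a median of 92.3% of the protein-coding promoters listed in the same library. It ranked 1989 and 981 (0 h), 1107 and 1553 (48 h), 2241 and 580 (72 h) and 1588 and 349 (96 h). The groups overlapped at each time, although by fold enrichment the 48 h pair was stronger. The Gclc promoter ranked 15058 and 10771 (0 h), 18721 and 31039 (48 h), 17819 and 16000 (72 h) and 22365 and 13820 (96 h). It was weaker than both 0 h libraries at 48 and 72 h, the latter call ending when rank was divided by list length or taken by fold enrichment. The limma difference of the Gclc promoter at 48 h was -0.42 ± 0.30 (adjusted p = 0.690) and that of the Gclm promoter 0.24 ± 0.27 (adjusted p = 0.813). Neither difference passed the test. The RefSeq promoter of Gclm is shown because it holds the only TGACNNNGC match in a summit window among the 14 promoter regions found in all 8 lists, in capitals as its reverse complement.
Gclm upstream, chr3:122245357-122245556, plus strand: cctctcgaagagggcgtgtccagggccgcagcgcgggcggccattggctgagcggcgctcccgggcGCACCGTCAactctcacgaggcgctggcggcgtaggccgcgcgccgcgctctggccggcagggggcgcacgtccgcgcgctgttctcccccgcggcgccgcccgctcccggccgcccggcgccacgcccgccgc

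Of the 35 distal regions of Gclc, 4 were stronger and 3 weaker at 48 h (5.26% and 6.93% of all distal regions), then 2 and 4 (7.94% and 5.76%) and 3 and 4 (5.52% and 5.74%) at the later times. Of the 10 at Gclm, 0 and 2, 1 and 1, and 1 and 0 were separated. The region 9.6 kb upstream of Gclc ranked 21827 and 24007 (0 h), 47082 and 44674 (48 h), 31788 and 32175 (72 h) and 35834 and 30975 (96 h), so that all 6 libraries after PHx were weaker. Its limma difference at 48 h was -0.59 ± 0.23 (adjusted p = 0.438). The call at 72 h ended when rank was divided by list length. A region 3.6 kb upstream of Gclc was weaker at 48 h (85817 and 62870 against 53933 and 62596) and at 72 h (64488 and 67433), and both calls ended when rank was divided by list length. The Gclc intron region 11.8 kb in was stronger at 48 h (43569 and 60016 against 68434 and 98976), a call that ended by fold enrichment. At 72 h it overlapped 0 h by rank, and was stronger by rank over list length and weaker by fold enrichment. At 96 h it was stronger by rank over list length only. The intron region 27.1 kb into Gclc ranked 33695 and 13314 (0 h), 13211 and 23111 (48 h), 46048 and 31995 (72 h) and 42068 and 38586 (96 h), and was weaker at 96 h in each scaling tried (limma -0.61 ± 0.31, adjusted p = 0.887). An intronic region of Gclm, 1.6 kb in, was stronger at 96 h in each scaling, at 29241 and 37280 against 41284 and 43155 (limma 0.31 ± 0.24, adjusted p = 0.953), and overlapped at 48 and 72 h. Another, 7.6 kb in, ranked 27985 and 33639 (0 h), 59116 and 50228 (48 h), 49722 and 48646 (72 h) and 32961 and 37556 (96 h). It was weaker at 48 and 72 h, the latter call ending when rank was divided by list length, and at 96 h it overlapped 0 h. With a difference of -0.70 ± 0.24 at 48 h it came first by p among the 50 regions tested in that comparison (adjusted p = 0.385 by limma). The region 9.6 kb upstream of Gclm ranked 9930 and 17987 (0 h), 55631 and 20058 (48 h), 11972 and 9941 (72 h) and 4385 and 21864 (96 h). It was weaker at 48 h by rank and by fold enrichment, a call that ended when rank was divided by list length, and its replicates lay far apart at 48 and 96 h. Its limma difference at 48 h was -0.85 ± 0.38 (adjusted p = 0.486). Gclc had the most distal regions of the 10 genes, of which 12 were in a single list and 5 in all 8.

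Hmox1 encodes heme oxygenase 1, which degrades heme to biliverdin, iron and carbon monoxide. It is repressed by Bach1 and activated by Nrf2, and its known distal enhancers carry antioxidant response elements that overlap AP-1 sites. At this gene the promoter ranked stronger after PHx and 2 distal regions ranked weaker. The promoter region (chr8:75093441-75094067) ranked 16579 and 16880 (0 h), 11166 and 8271 (48 h), 8486 and 10200 (72 h) and 8732 and 7310 (96 h). All 6 libraries after PHx were stronger than both 0 h libraries, which lay close together. The call held when rank was divided by list length. Ranked by fold enrichment, it ended at 48 h and held at 72 and 96 h. Fold enrichment was 8.27 and 8.90 (0 h), 6.53 and 8.73 (48 h), 10.1 and 8.80 (72 h) and 9.65 and 10.0 (96 h), which overlap at 48 and 72 h. The limma differences were 0.22 ± 0.24, 0.20 ± 0.24 and 0.30 ± 0.24 at 48, 72 and 96 h, with adjusted p = 0.815, 0.953 and 0.956.

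The strongest distal region lay 9.7 kb upstream of the Hmox1 TSS, between genes, at chr8:75083471-75084336. It ranked 10031 and 4246 (0 h), 10274 and 11411 (48 h), 13229 and 15864 (72 h) and 12598 and 32002 (96 h). Every library after PHx was weaker than both at 0 h, in each scaling tried, but at 48 h by a small margin over 1 of the 0 h libraries. Its fold enrichment was 15.7 and 20.7 (0 h), 10.6 and 11.1 (48 h), 14.0 and 12.4 (72 h) and 12.9 and 7.74 (96 h). The limma difference was largest at 96 h, at -0.72 ± 0.27 (adjusted p = 0.840), and -0.31 ± 0.27 at 48 h (adjusted p = 0.756). The region 9.5 kb downstream of the TSS, past the end of the gene, ranked 18327 and 14276 (0 h), 32110 and 39146 (48 h), 28572 and 27493 (72 h) and 46365 and 21009 (96 h). It too was weaker in all 6 libraries in each scaling tried, with a limma difference of -0.65 ± 0.26 over the 3 times together (adjusted p = 0.582). A region 4.0 kb upstream ranked 24831 and 10645 at 0 h and was weaker at 96 h (40138 and 37753), with overlap at 48 h (17099 and 42103) and at 72 h (24393 and 34353). The promoter of the neighbouring replication gene Mcm5, 15102 bp downstream of the Hmox1 TSS, ranked 3768 and 6291 (0 h), 14492 and 6344 (48 h), 6683 and 7934 (72 h) and 13397 and 5196 (96 h). It was thus weaker at 48 and 72 h, at 48 h by a small margin, and overlapped 0 h at 96 h.

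The 2 upstream regions carry the antioxidant response element core, written TGACNNNGC and searched on both strands in the 200 bp around the summit. The 200 bp of each are printed from the genome (GRCm38.p6, the mm10 assembly) with the matches in capitals, all of them read here as the reverse complement.
Hmox1 9.7 kb upstream, chr8:75083858-75084057, plus strand: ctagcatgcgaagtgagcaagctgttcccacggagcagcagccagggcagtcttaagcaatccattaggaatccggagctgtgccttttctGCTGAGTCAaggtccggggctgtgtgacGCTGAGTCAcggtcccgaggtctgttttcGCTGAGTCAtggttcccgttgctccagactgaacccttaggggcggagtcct
Hmox1 4.0 kb upstream, chr8:75089550-75089749, plus strand: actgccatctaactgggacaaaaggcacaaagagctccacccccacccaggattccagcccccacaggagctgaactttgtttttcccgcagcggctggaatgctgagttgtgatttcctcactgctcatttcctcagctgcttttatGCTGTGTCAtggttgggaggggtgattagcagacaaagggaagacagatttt
The region at 9.7 kb holds 3 matches, at -5, 23 and 52 bp from the summit, each reading TGACTCAGC on the minus strand and each overlapping an AP-1 word (TGAGTCA or TGACTCA). A window with 3 or more such matches was found in 14 of the 41536 distal regions present in all 8 lists (0.0337%), and 1 or more in 4565 of them (11.0%). These letters are a description of the sequence and not evidence of binding.

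Thioredoxin reductase 1 (Txnrd1) keeps thioredoxin reduced, and sulfiredoxin (Srxn1) restores overoxidised peroxiredoxins. Both are Nrf2 targets. Txnrd1 has several annotated start sites, and the most upstream of them, at chr10:82833951, had no interval within 1 kb in any library. The 3 regions in its other promoter windows did not move alike. The region 174 bp upstream ranked 10408 and 16074 (0 h), 4452 and 30139 (48 h), 12797 and 18144 (72 h) and 18965 and 7128 (96 h), with wide gaps between replicates. A region 220 bp downstream ranked 17382 and 17499 at 0 h and 10929 to 31329 after PHx, also on both sides. The short region 523 bp upstream ranked 18079 and 12583 (0 h), 20108 and 23170 (48 h), 27362 and 26459 (72 h) and 29898 and 66778 (96 h), weaker in all 6. Ranked by fold enrichment its call ended at 48 h only, and by limma the difference at 96 h was -0.78 ± 0.27 (adjusted p = 0.810). Of the 15 distal regions of Txnrd1, 1 was stronger and 4 weaker at 48 h, then 1 and 0 (72 h) and 1 and 1 (96 h), beside the shares of all distal regions given above. The best ranked of them, 10.9 kb upstream of the nearest TSS, was stronger at 48 h (13404 and 14482 against 19573 and 17333). By fold enrichment it overlapped 0 h at 48 h and was weaker at 72 and 96 h. Of the 4 weaker at 48 h, 3 were in all 8 lists, and these fall outside the rule for named regions and were chosen after their values were seen. The one 18610 bp downstream ranked 72780 and 49287 at 48 h against 28481 and 34225, the one at 29385 bp 57422 and 73670 against 40248 and 24237, and the one at 39815 bp 66447 and 40539 against 24046 and 32034. Their limma differences at 48 h were -0.58 ± 0.25, -0.80 ± 0.30 and -0.66 ± 0.25, with adjusted p = 0.478, 0.426 and 0.420. The region 41.3 kb downstream was stronger at 72 h (29988 and 24678 against 36454 and 32311), which ended by fold enrichment. The intronic region 15.9 kb into Txnrd1 ranked 28020 and 27061 (0 h) and 15874 and 15209 (96 h), where it was stronger in each scaling. The Srxn1 promoter ranked 6963 and 8631 (0 h), 2670 and 8473 (48 h), 7510 and 5126 (72 h) and 5803 and 7925 (96 h), overlapping at each time by rank. At 72 h it was stronger by rank over list length and by fold enrichment. Its only distal region in all 8 lists, 6.5 kb downstream, ranked 20972 and 8185 (0 h), 25071 and 17251 (48 h), 18893 and 13575 (72 h) and 14640 and 22928 (96 h). The 0 h libraries lay far apart and the groups overlapped by rank, whereas by fold enrichment the region was weaker at each time. The fold enrichment there was 10.6 and 15.8 at 0 h and 5.75 to 9.04 in the 6 libraries after PHx, and the limma difference over the 3 times was -0.56 ± 0.21 (adjusted p = 0.571).

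The stretches before the TSS in the RefSeq table are shown for both genes because each holds an element that was searched for. That of Srxn1 holds 0 TGACNNNGC matches. For Txnrd1 the capitals mark a TGACNNNGC match (8.60% of the 32851 mouse promoters in the table hold 1 or more in the 200 bp before the TSS), and for Srxn1 they mark 2 TGAGTCA words of AP-1 (0.116% hold 2 or more words of this kind).
Txnrd1 upstream, chr10:82859006-82859178, plus strand: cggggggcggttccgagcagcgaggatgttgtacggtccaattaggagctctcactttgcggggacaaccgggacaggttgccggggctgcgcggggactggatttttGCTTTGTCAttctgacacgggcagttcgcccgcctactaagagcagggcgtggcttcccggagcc
Srxn1 upstream, chr2:152105324-152105523, plus strand: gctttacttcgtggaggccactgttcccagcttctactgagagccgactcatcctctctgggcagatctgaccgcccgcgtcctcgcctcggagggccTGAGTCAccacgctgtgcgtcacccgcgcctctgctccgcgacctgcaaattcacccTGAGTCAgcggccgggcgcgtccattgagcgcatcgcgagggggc

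Mt1 and Mt2, the main metallothioneins of the liver, are neighbours on chromosome 8, and their promoter windows hold 5 of the 16 promoter regions. The Mt1 TSS itself was covered weakly and in 5 of the 8 lists. That region ranked 79787 and 16284 at 0 h, 113914 in 1 library at 48 h, 90251 in 1 library at 72 h and 45225 in 1 library at 96 h, and was missing from the other 3. It is 1 of the 4 promoter regions counted as weaker at 48 h and at 72 h, with the missing interval at each time ranked last. Both calls held by rank over list length and by fold enrichment, and ended among the 50000 strongest intervals. Replicate 2 at 0 h stood apart there, with a fold enrichment of 7.37 against 1.59 to 3.16 in the other 4. Another region in the window, 497 bp downstream, was listed only in that library. A broad region 3.0 kb downstream (chr8:94180043-94183493), which only reaches into the Mt1 window, was present in all 8 lists. It ranked 13827 and 18306 (0 h), 7086 and 18328 (48 h), 18941 and 12656 (72 h) and 6935 and 16192 (96 h), overlapping at each time by rank and weaker at 72 h by fold enrichment. The Mt2 promoter region over the TSS ranked 68587 and 80093 (0 h), 48078 and 109538 (48 h), 76710 and 83153 (72 h) and 71151 and 32335 (96 h). By rank it did not separate the groups, nor did the other region in the window, 1291 bp upstream. By fold enrichment both were weaker at 72 h, and by rank over list length the first was stronger at 96 h. Taking the stronger of both regions in each library, Mt2 had the weakest promoter of the 10, above a median of 14.3% of listed protein-coding promoters.

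The one metallothionein region that separated all 6 libraries from 0 h lay 7.4 kb upstream of Mt2 (chr8:94165006-94165920). It ranked 38283 and 38095 (0 h), 60463 and 73426 (48 h), 81216 and 89479 (72 h) and 54300 and 51901 (96 h), weaker in each scaling tried. Its fold enrichment was 7.22 and 7.10 (0 h), 4.11 and 3.51 (48 h), 4.21 and 3.32 (72 h) and 5.38 and 5.11 (96 h). The replicates were close at each time, and no group after PHx overlapped 0 h. By limma the difference at 72 h was -0.87 ± 0.24 (adjusted p = 0.606), the first by p of the 50 regions at that time. At 48 h it was -0.59 ± 0.24 (adjusted p = 0.455) and at 96 h -0.33 ± 0.24 (adjusted p = 0.943). The region 5.2 kb upstream of Mt2 ranked 33237 and 49799 at 0 h and 16768 to 52165 after PHx, with overlap at each time. A region 7.5 kb downstream of Mt1 ranked 24900 and 10014 at 0 h and 16875 to 38013 after PHx, with overlap. Its summit window is printed with the Mt2 promoter because both hold an antioxidant response element match together with metal response elements (TGCACNC or TGCGCNC, both strands), all in capitals.
Mt1 7.5 kb downstream, chr8:94186668-94186867, plus strand: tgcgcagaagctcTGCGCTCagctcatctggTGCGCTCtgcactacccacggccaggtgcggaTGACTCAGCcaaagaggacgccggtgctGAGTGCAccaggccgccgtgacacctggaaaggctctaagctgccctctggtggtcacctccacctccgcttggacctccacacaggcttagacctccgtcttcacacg
Mt2 upstream, chr8:94172418-94172617, plus strand: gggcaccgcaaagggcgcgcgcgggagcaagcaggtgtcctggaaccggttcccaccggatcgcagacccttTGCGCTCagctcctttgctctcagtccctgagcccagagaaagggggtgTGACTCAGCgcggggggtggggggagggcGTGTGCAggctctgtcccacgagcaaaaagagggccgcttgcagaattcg
The window near Mt1 holds 3 metal response elements, and 102 of the 41536 distal regions in all 8 lists (0.246%) hold 3 or more. The stretch before the Mt2 TSS of RefSeq (94172618, upstream of the annotated TSS at 94172664) holds 2, and 4.0% of RefSeq promoters hold 2 or more. Counted over whole regions, which differ in length, the Mt1 TSS region holds 5 metal response elements and the Mt2 TSS region 7. The broad region in the Mt1 window (3451 bp) holds 12, and the region 7.5 kb downstream of Mt1 holds 4. In that order, they hold 1, 1, 3 and 1 antioxidant response elements. Shares of all regions were not counted for whole regions.

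Matches were also counted over all regions of the 10 genes. In the 200 bp around the summit, the antioxidant response element was found in 2 of 16 promoter and 14 of 110 distal regions, where 10.3% of all promoter and 9.31% of all distal regions hold it. Metal response elements were found in 4 and 16 (22.9% and 13.3% of all), and AP-1 words in 1 and 8 (3.61% and 5.35% of all). AP-1 words can lie inside antioxidant response element matches, so the last count and the first overlap. Among the 31 distal regions found in all 8 lists, 10 held a metal response element, where 13.6% of such regions do, 5 an antioxidant response element (11.0%) and 3 an AP-1 word (6.20%). Among the 14 promoter regions in all 8 lists these were 3, 1 and 1 (29.1%, 10.9% and 2.75%). Several of the regions lie at the same gene, and no test was made. The RefSeq table had an entry for 8 of the 10 genes, all but Gclc and Hmox1, and 5 of the 8 (Gclm, Txnrd1, Srxn1, Mt1 and Mt2) hold 1 or more of these elements in the 200 bp before a TSS, as do 30.7% of the 27025 genes in the table.

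**Figure D3:**
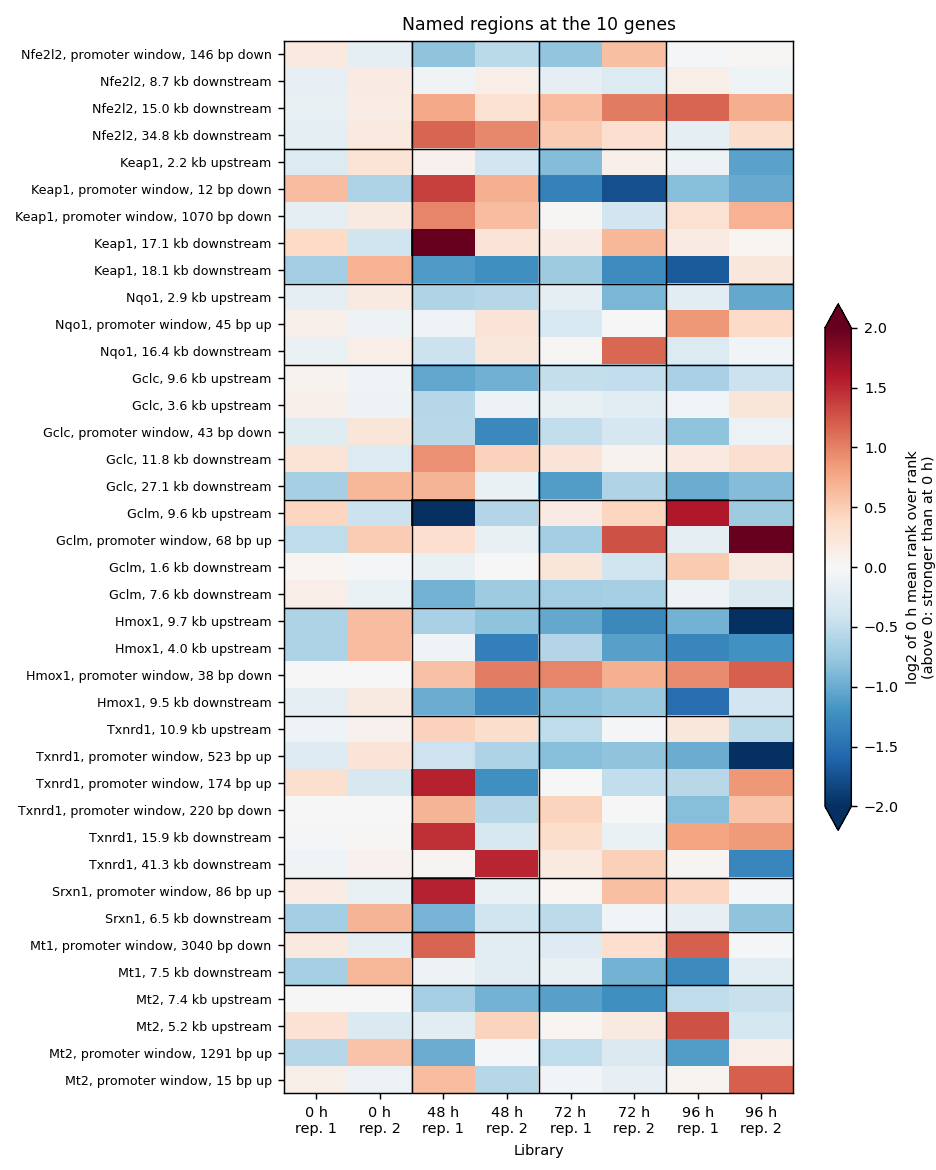
Regions named by the rule and found in all 8 lists, as the log2 ratio of the 0 h mean rank (geometric) to the rank in each library, grouped by gene and ordered by distance from the TSS. Red marks ranks stronger than at 0 h and blue weaker, with colours ending at 2. The Hmox1 promoter is red and its regions at 9.7 kb upstream and 9.5 kb downstream are blue in all 6 libraries after PHx.

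The same regions were tested with limma on quantile-normalised log2 fold enrichment over the 57473 regions present in all 8 lists, 50 of them at the 10 genes. None of the 57473 regions passed an adjusted p of 0.05 at 48, 72 or 96 h or over the 3 times together (0.00% in each direction). At an unadjusted p under 0.05, limma gave 1 of the 50 regions stronger and 9 weaker at 48 h, beside 4.90% and 4.99% of all regions. At 72 h the unadjusted counts were 0 and 2 (3.62% and 2.66% of all), at 96 h 0 and 5 (3.06% and 2.63%), and over the 3 times 0 and 4 (4.39% and 3.36%). The median difference of the 50 regions was -0.04, -0.15 and -0.09 at 48, 72 and 96 h, where the median of all regions lay between -0.02 and 0.00. The stronger region at 48 h was 17.1 kb downstream of the Keap1 TSS (0.75 ± 0.30, adjusted p = 0.447). Regions at Gclm, Txnrd1, Gclc, Mt2, Srxn1 and Hmox1 made up the 9 weaker ones, none of them a promoter. The fit rests on 2 libraries per time.

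**Figure D4:**
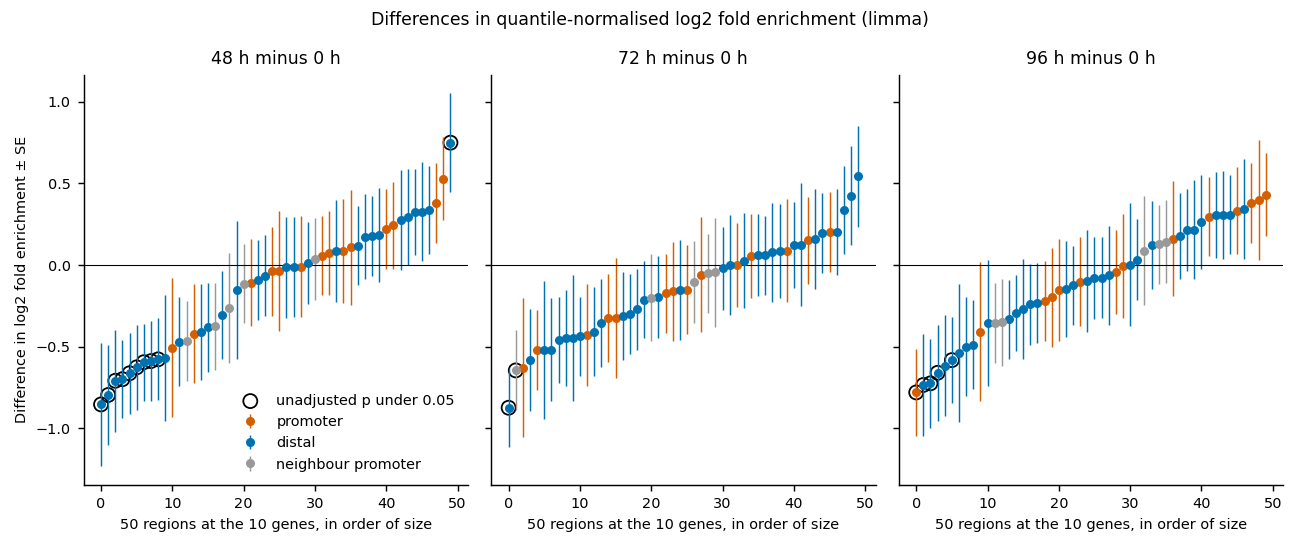
Difference from 0 h in quantile-normalised log2 fold enrichment with its standard error (limma), for the 50 regions at the 10 genes present in all 8 lists, in order of size at each time. Black circles mark an unadjusted p under 0.05, of which 9 at 48 h, 2 at 72 h and 5 at 96 h lie below 0 and 1 at 48 h above, and no adjusted p passes.

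Among 61 further genes of the pathway, listed by role, most promoters that separated from 0 h by rank were weaker. At 48 h, 5 ranked stronger and 21 weaker than both 0 h libraries, where 11.7% and 18.7% of the 21911 protein-coding genes did. At 72 h the counts were 6 and 27 (11.8% and 20.4% of all), and at 96 h 9 and 16 (10.1% and 12.9%). In all 6 libraries after PHx, 2 were stronger and 6 weaker (3.02% and 5.0% of all). By rank over list length the counts became 9 and 16 (13.8% and 14.7% of all), 12 and 17 (19.3% and 10.9%), and 14 and 10 (15.4% and 8.02%), so that more were stronger than weaker at 96 h. By fold enrichment they were 8 and 12 (13.9% and 13.3%), 7 and 23 (11.5% and 17.3%), and 9 and 9 (10.5% and 9.84%). Genes in few lists can rarely separate the groups, and 54 of the 61 were in all 8 lists, against 13358 of the 21911. Among the 54, the stronger and weaker counts by plain rank were 5 and 20 at 48 h (16.5% and 29.0% of all such genes). They were 4 and 24 at 72 h (14.8% and 32.0%) and 7 and 15 at 96 h (13.7% and 20%). In all 6 libraries after PHx they were 2 and 6 (4.23% and 7.65%). These background shares of weaker genes are higher than over all 21911. The median promoter region of the series, over those in all 8 lists, is itself weaker by 0.14, 0.18 and 0.08 in log2 rank at 48, 72 and 96 h. By rank over list length it moves by -0.01, -0.17 and -0.16, toward stronger. The values of the hepatocyte marker promoters are given above, and their part in these counts was not tested.

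Among pathway promoters in all 8 lists, the largest shifts toward weaker ranks at 48 and 72 h were at Gstm1, a glutathione transferase, with 3694 and 5870 (0 h), 15650 and 14934 (48 h), 14521 and 20597 (72 h) and 17368 and 3418 (96 h). At 48 h 2 selenium-dependent peroxidases followed. Gpx1, which reduces hydrogen peroxide, ranked 23994 and 17769 (0 h) and 88212 and 48771 (48 h), and Gpx4, which reduces lipid peroxides, ranked 10093 and 7622 (0 h) and 21098 and 25846 (48 h). Osgin1, a growth inhibitor induced by oxidative stress, falls outside the rule and was noticed after its values were seen, with ranks 45610 and 36725 at 0 h and no interval in either 48 h list. Of the 9 Nrf2 partners and regulators, 4, 5 and 3 were weaker at the 3 times, where 18.7%, 20.4% and 12.9% of all protein-coding promoters were, and none stronger. All 9 were in all 8 lists, and of the protein-coding promoters in all 8 lists 29.0%, 32.0% and 20% were weaker. By rank over list length the weaker ones of the 9 numbered 4, 3 and 2 (14.7%, 10.9% and 8.02% of all) and none was stronger. By fold enrichment they numbered 1, 2 and 0 (13.3%, 17.3% and 9.84%), with 1 stronger at 48 h. Those weaker by rank include Nfe2l1, a relative of Nrf2, at 9190 and 11353 (0 h) and 24013 and 30232 (72 h). On the stronger side, Txn1 (thioredoxin) ranked 1954 and 1499 (0 h), 1469 and 419 (48 h), 1465 and 651 (72 h) and 483 and 694 (96 h), and Gstm3 51150 and 57430 at 0 h and 28688 to 40968 after PHx. Both were stronger in all 6 libraries. The 6 weaker in all 6 were Sqstm1 (p62, an autophagy receptor that binds Keap1), Gpx1, the mitochondrial thioredoxin reductase Txnrd2, the glutathione transferases Gsta2 and Gsta4, and Tkt (transketolase of the pentose phosphate pathway). Sqstm1 ranked 29424 and 14549 at 0 h and 32199 to 49987 after PHx, and Tkt 19498 and 10165 at 0 h and 19817 to 30977 after PHx. Of the 6, those outside the rule were added because they complete this count. In the metal response list, 0 of 6 genes were stronger and 2 weaker at 48 h (Slc30a1 and Slc39a14), beside 11.7% and 18.7% of all protein-coding promoters. By rank over list length these counts were 1 and 0 (13.8% and 14.7%), and by fold enrichment 1 and 0 (13.9% and 13.3%). At 72 h 2 were stronger and 1 weaker (11.8% and 20.4%). There, rank over list length gave 3 and 1 (19.3% and 10.9%) and fold enrichment 1 and 0 (11.5% and 17.3%). At 96 h 4 were stronger (10.1% of all protein-coding promoters), 4 by rank over list length (15.4%) and 3 by fold enrichment (10.5%). One of the 4, Mt4, was in neither 0 h list and ranked only 101960 and 113434 at 96 h. Slc30a1, a zinc exporter, was weaker at 48 h (42076 and 24589 against 19931 and 18778) and stronger at 96 h (15943 and 17510) by plain rank. Its call at 48 h ended in both other scalings. Another of the 4 was Mtf1, the metal-sensing transcription factor of the metallothioneins, at 4771 and 8003 (0 h) and 2816 and 1617 (96 h). At the same time Slc39a10, a zinc importer, was the 1 weaker gene (12.9% of all), at 397 and 270 against 156 and 136. This call ended by fold enrichment. For NADPH supply, Me1 (malic enzyme) was stronger at 96 h (11053 and 10378 against 18419 and 26844) and Idh1 weaker (1816 and 2674 against 1004 and 765).

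Across the 8 libraries, the gene whose promoter ranks ran most like those of Hmox1 was Uggt2, a glycoprotein quality-control enzyme of the endoplasmic reticulum (Pearson r = 0.989 of log2 ranks, over 13358 genes with a promoter in all 8 lists), followed by Hpse (0.961) and Tslp (0.938). Nearest to Nfe2l2 were Rwdd1 (0.949), Rimklb (0.940) and Fam20c (0.931), and nearest to Mt1 were Rasgef1c (0.938), Ube2ql1 (0.935) and Ifnlr1 (0.916). All of these share the depth and list length of the same 8 libraries, and the likeness was picked from 13358 genes over 8 points, so it is a description only. The Mt1 ranks used here are those of the broad region 3.0 kb downstream, except in replicate 2 at 0 h, where the TSS region ranked stronger (16284). They do not give the course of the Mt1 TSS.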

How the data were processed

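Bulk ATAC-Seq peak lists of 8 hepatocyte libraries were analysed, in 4 groups of 2 by their labels (undamaged liver and 3 times after PHx). Per the study's methods, the authors used the ENCODE pipeline for this assay: trimmed reads were aligned to mm10 with Bowtie2, duplicates were removed, and peaks were called by MACS2. One list was deposited per library, and whether reads were pooled is not given in the sources used here. For every peak the deposited lists give a summit with its −log10 p and −log10 q, the fold enrichment there and a score for display. The lists were cut by the authors at a lenient p (lowest deposited −log10 p of 2.0). No read counts were at hand, so depth and counting error are unknown, and the study's test on counts was not run. The score was not used. The name of the list of replicate 2 at 72 h lacks a flow cell tag that the other lists share, and the sequencing runs are not given in the sources used here.

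Lines sharing an interval were collapsed to the highest −log10 p, ranked within the list, and merged across lists at 1 bp overlap. Annotation was GENCODE M21 basic on GRCm38.p6, and chromosome ends matched the lists. Missing intervals ranked behind all others. For limma 3.58.1 (R 4.3.3), log2 fold enrichment of the regions in all 8 lists was quantile normalised and fitted with the 4 times as groups. P-values were adjusted by Benjamini-Hochberg over all 57473 regions, and the procedure was tested on simulated data. With 2 libraries against 2, an exact permutation test of a single region cannot reach 0.05. The study describes hepatocyte preparations from separate mice at each time and biological replicates of this assay at 0 and 48 h, more per time than the 2 libraries used here. The labels do not say which mouse gave which library. No 2 lists shared an identical set of intervals. Sequences came from the genome and from RefSeq's promoter table (GRCm38.p6).

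Named were all promoter regions, the 3 distal regions per gene with the best median rank in all 8 lists, those in all 8 lists with an antioxidant response element match, up to 4 pathway genes per time and direction, and the 3 nearest patterns for Nfe2l2, Hmox1 and Mt1. Genes, lists and tests were chosen with earlier results of these data known. Alternatives were rank over list length, ranking by fold enrichment, a q under 0.05, the 50000 strongest intervals, 200 bp around summits, promoter windows of 500 bp, flanks of 5 and 20 kb, other normalisations, a replicate block, leaving out each library and, added after the data were seen, regions in all 8 lists only and both other scalings for the pathway genes.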

Additional observations from a re-analysis of the deposited data

Results flagged for a closer look

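The Keap1 promoter region (chr9:21238141-21239459) stood out because both libraries of 1 time lay on one side of 0 h and both libraries of other times on the other side. It ranked 3606 and 5645 at 48 h against 6024 and 14312 at 0 h, and 23805 and 31257 at 72 h and 16724 and 18750 at 96 h. By limma, log2 fold enrichment at 72 h minus that at 48 h was -0.90 ± 0.24 (SE, adjusted p = 0.531), and 96 h minus 48 h was -0.60 ± 0.24 (adjusted p = 0.622), so neither difference passed the correction over all regions. With 2 libraries in each group, no rule could single out a sample far from its own group. The log2 fold enrichments of the 2 libraries at 96 h correlated at 0.7565, beside 0.8196 (0 h), 0.7864 (48 h) and 0.8326 (72 h). Replicate 1 at 96 h correlated more with replicate 1 at 72 h (0.8486) and at 0 h (0.839).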

How the results depend on the processing

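Counts of separated regions are given as promoter stronger and weaker, then distal stronger and weaker. They were 3, 4, 9 and 17 (48 h), 1, 4, 7 and 12 (72 h) and 3, 2, 8 and 12 (96 h). Rank over list length gave 3, 3, 12 and 14, then 4, 3, 16 and 6, then 4, 1, 15 and 10. Ranking by fold enrichment gave 3, 2, 3 and 19, then 2, 7, 5 and 18, then 3, 1, 5 and 18. The 50000 strongest intervals gave 3, 3, 3 and 11, then 1, 3, 2 and 6, then 3, 2, 3 and 7, of 15 promoter and 36 distal regions left (15.3%, 24.1%, 14.4% and 15.2% of all such regions, then 13.5%, 26.0%, 15.3% and 12.9%, then 12.1%, 17.6%, 11.8% and 12.8%). Windows of 200 bp moved the distal stronger count at 72 h to 12 of 141 (7.37% of all), and regions in all 8 lists (added after the data were seen) gave distal 6 and 13, 4 and 9, and 4 and 7. A q under 0.05 and promoter windows of 500 bp left every count within 1.5 times. Leaving out 1 library loosens the rule by construction and gave 4 to 8, 4 to 8, 14 to 28 and 21 to 30 (48 h), 2 to 5, 7 to 8, 14 to 25 and 15 to 30 (72 h) and 4 to 7, 2 to 7, 11 to 35 and 19 to 29 (96 h), with the 35 coming from leaving out replicate 2 at 96 h. Over all regions these shares were 16.7 to 28.8%, 23.8 to 27.7%, 7.41 to 23.8% and 10.3 to 18% (48 h), 18.3 to 29.2%, 25.2 to 29.4%, 11.3 to 26.3% and 9.15 to 16.8% (72 h) and 15.9 to 27.1%, 21.9 to 25%, 8.15 to 22.6% and 9.19 to 16.8% (96 h).

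Of 51 separations at named regions, rank over list length kept 40 and turned 1, ranking by fold enrichment kept 37, the 50000 strongest intervals 42, and a q under 0.05 and 200 bp windows all 51. For the 61 pathway genes, scalings added after the data were seen moved the counts stronger and weaker from 5 and 21, 6 and 27, and 9 and 16 to 9 and 16, 12 and 17, and 14 and 10 by rank over list length, and to 8 and 12, 7 and 23, and 9 and 9 by fold enrichment. The mean log2 shift toward stronger changed sign, by fold enrichment, for the Nfe2l2 region at 15 kb (-0.082, -0.132 and -0.161 at 48, 72 and 96 h), the Nfe2l2 region at 34.8 kb (-0.026 at 72 h) and a Gclc intron region 11.8 kb in (-0.027 at 48 h). By rank over list length it did so for the Nfe2l2 region at 8.7 kb (0.118) and the Gclc region 3.6 kb upstream (0.168), both at 72 h. The cause was not tested. Flanks of 5 and 20 kb gave 112 and 177 regions, and with 5 kb the Hmox1 region 9.7 kb upstream falls outside. In 400 bp windows, antioxidant response elements were in 5 promoter regions (17.4% of all promoter regions), metal response elements in 28 distal regions (22.7% of all distal regions) and AP-1 words in 3 promoter regions (6.16%).

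limma called 0 regions of the 10 genes under every alternative and with any 1 library left out. Replicate numbers do not pair the libraries: deviations of replicate 1 correlated between times at -0.06 to 0.13, and with the replicate block the calls stayed at 0, with 9 regions weaker at an unadjusted p under 0.05 at 48 h. Depth is unknown, so differences in fold enrichment that small libraries hide were not detectable.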
